A study of Arabidopsis thaliana with 13 samples.

Results

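Chromatin remodellers and histone chaperones handle the proteins around which DNA is wrapped, and the transcripts of 4 such genes were followed in root tips in which RETINOBLASTOMA RELATED (RBR) was silenced. The genes were CHR17 (AT5G18620), CHR31 (AT1G05490), SGA2 (AT1G66740) and ASF1B (AT5G38110), chosen by their symbols among the probe sets that stand for exactly 1 gene. They are 4 of the 13356 genes to which at least 1 probe set belongs alone, and they have 5 of the 22746 probe sets tested, 2 of them for CHR31 (263203_at and 263204_at) and 1 for each of the other genes. In rRBr, the RCH1 promoter drives RNA interference against RBR in the root meristem of Col-0 plants. The reference was wild-type Col-0. Dissected tips of both lines were profiled on Affymetrix ATH1 arrays at 4, 6 and 10 das, with 2, 2 and 3 arrays for rRBr and 2, 1 and 3 arrays for Col-0. The same numbers are days after sowing in the study's text and days after stratification in the sample labels. Both lines were germinated together, 3 times over, and the labels call the arrays biological replicates. The silencing acts only where the promoter is active, whereas a dissected tip also holds other cells, and RBR itself was not analysed here.

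Remodellers of the SNF2 superfamily use ATP to slide, space or evict nucleosomes. CHR17 is, with CHR11, an ISWI type ATPase of Arabidopsis, a family that spaces nucleosomes. CHR31, also known as CLASSY3, belongs to the plant CLASSY proteins, which bring RNA polymerase IV to its targets in RNA-directed DNA methylation, and it is best known from reproductive tissues. SGA2, also known as ASF1A, and ASF1B are the Arabidopsis ASF1 chaperones, which hold histones H3 and H4 and hand them on for assembly behind replication forks and at transcribed genes. RBR restrains E2F transcription factors, which activate genes needed for DNA replication.

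All values are log2 RMA values, so that a difference of 1 is a doubling of the signal, and RMA had made the arrays comparable (medians from 5.96 to 6.06). A probe set was called when the adjusted p from limma was under 0.01 and the fold change was at least 1.4, the limits of the study. On 3 arrays, rRBr 6 das replicate 1, rRBr 10 das replicate 1 and Col-0 10 das replicate 1, the root hair genes EXPA7 and EXPA18 had a mean log2 value of 8.80 to 8.89, against 4.69 to 7.41 on the other 10. Of 7 genes listed for the root meristem and its stem cell niche, only JKD and AT5G48940 had a probe set of their own. AT5G48940, listed as RCH1, lay at log2 values of 8.79 to 9.47 on the 13 arrays. Its difference between rRBr and Col-0 was −0.02 over all days. It was lowest of its line and day on the 3 arrays with high root hair values (9.15, 8.92 and 8.79 in the order named above). JKD, a regulator of cell identity in the root tip, had 6.65 and 6.70 in rRBr against 6.56 and 6.61 in Col-0 at 4 das, and 6.77 and 6.72 in rRBr against 6.59 in Col-0 at 6 das. At 10 das it had 6.32, 6.45 and 6.44 in rRBr against 6.54, 6.54 and 6.53 in Col-0. JKD was thus higher in rRBr at the first days and lower at 10 das (log2 differences of 0.09, 0.16 and −0.13, adjusted p = 1, 0.9264 and 0.6631 from limma). The annotation table used here gave no probe set of their own to the 7 genes listed for dividing cells. It gave none to the 4 for the root cap or the 4 for leaf either. These genes were not analysed here, and whether the lines differed in their share of these cells was not tested. The study's own analysis of these arrays listed PCNA2 and BRN2 as higher in rRBr. PCNA2 is among the genes listed for dividing cells, and BRN2 is among those for the root cap. The study's microscopy found extra S-phase labelling in initials of the rRBr columella and lateral root cap at 4 das. It also found stem cell layers increasing at 6 and 10 das, and dead cells accumulating from 4 das. In RNA from whole tips, a change in the number of cells of a type and a change in the RNA of each cell cannot be told apart.

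Over all days, CHR17 and 1 of the CHR31 probe sets rose in rRBr root tips, whereas neither ASF1 gene was called. Thus 2 of the 5 probe sets were called higher and none lower, where 0.343% of all probe sets were called higher and 0.0747% lower. The values of the 7 rRBr arrays lay wholly above those of the 6 Col-0 arrays for the same 2 probe sets, a separation seen for 0.936% of all probe sets (0.347% were separated the other way). The members were chosen with earlier results of these data known. The study's own list of genes higher in rRBr, from these arrays, already held CHR17 and CHR31. The shares are thus a description and not a test of these genes as a set.

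**Figure D1:**
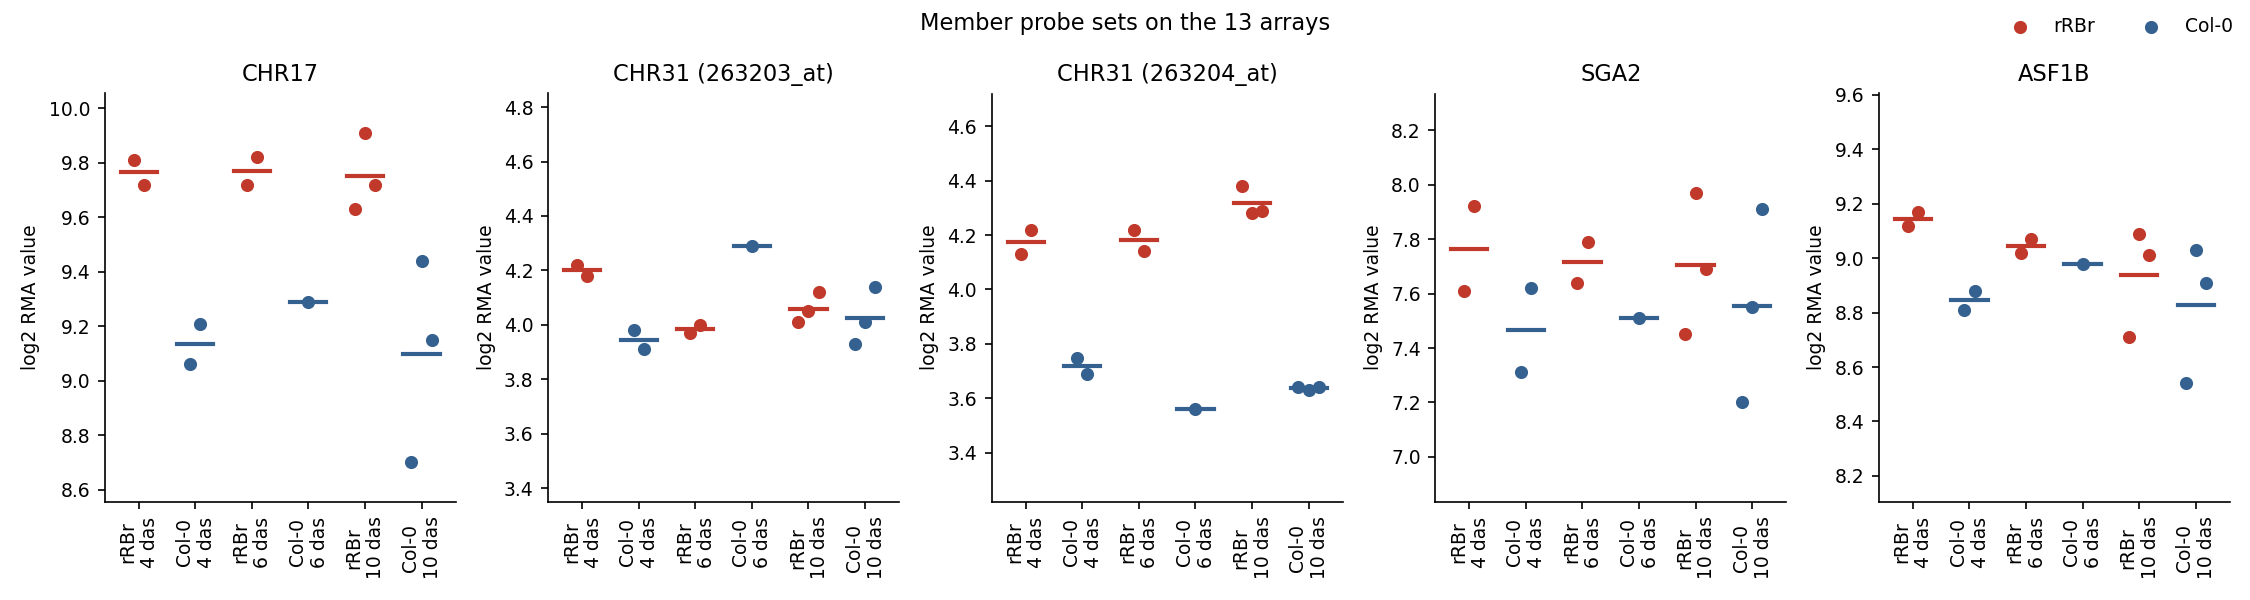
Log2 RMA value (vertical axes, each spanning 1.5 units) of the 5 member probe sets on the 13 arrays, grouped by line and day, with 1 point per array and a bar at the mean of each group. CHR17 and 263204_at of CHR31 lay higher on every rRBr array (9.63 to 9.91 and 4.13 to 4.38) than on any Col-0 array (8.70 to 9.44 and 3.56 to 3.75), and the other 3 probe sets overlapped.

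At 4 das, CHR17, the ISWI ATPase gene, had log2 values of 9.81 and 9.72 in rRBr, against 9.06 and 9.21 in Col-0. At 6 das it had 9.72 and 9.82 in rRBr, against 9.29 on the single Col-0 array. At 10 das the 3 rRBr arrays read 9.63, 9.91 and 9.72, and the 3 Col-0 arrays read 8.70, 9.44 and 9.15. The rRBr arrays were thus close to one another on all days, and the Col-0 arrays were spread more widely, with the lowest and the highest both at 10 das. The mean was 9.76 ± 0.09 (SD, n = 7) in rRBr and 9.14 ± 0.25 (SD, n = 6) in Col-0, a fold change of 1.54 (log2 difference 0.62, 95% interval 0.41 to 0.83, adjusted p = 0.005756 from limma). Between 91.0% and 92.5% of all probe sets lay below CHR17 on the rRBr arrays and between 83.3% and 89.6% on the Col-0 arrays, which places its signal but does not compare transcript amounts, since probe sets differ in how well they bind. In the 6 pairs of arrays with the same day and replicate number, CHR17 was higher in rRBr in 6, by 0.43 to 0.93. The call was lost without any 1 of 10 arrays (adjusted p from 0.01128 to 0.01996) and kept only without rRBr 10 das replicate 1, Col-0 10 das replicate 1 or Col-0 10 das replicate 2. These 10 were both 4 das arrays of each line, both rRBr and the Col-0 array of 6 das, rRBr 10 das replicates 2 and 3 and Col-0 10 das replicate 3, and the difference without 1 array was 0.53 to 0.68. With each same-numbered pair as a block, the difference was 0.61 and the call was lost (adjusted p = 0.01401), as it was with the day as a factor (adjusted p = 0.01557).

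CHR31 gave different answers from its 2 probe sets. At 4 das, probe set 263204_at had log2 values of 4.13 and 4.22 in rRBr, against 3.75 and 3.69 in Col-0. At 6 das it had 4.22 and 4.14 in rRBr, against 3.56 on the single Col-0 array. At 10 das the 3 rRBr arrays read 4.38, 4.28 and 4.29, and the 3 Col-0 arrays read 3.64, 3.63 and 3.64. The lines were separated on every day, and the arrays within a line and day were nearly level. The mean was 4.24 ± 0.09 (SD, n = 7) in rRBr and 3.65 ± 0.06 (SD, n = 6) in Col-0, a fold change of 1.50 (log2 difference 0.59, 95% interval 0.48 to 0.69, adjusted p = 4.606e-05 from limma). It ranked 9th by p of all 22746 probe sets, and the call held without any single array (log2 difference 0.56 to 0.61, adjusted p from 9.436e-05 to 3.112e-04). The residual SD within groups was 0.047, against a median of 0.14 over all probe sets, and only 1.79% of probe sets varied less. Probe set 263203_at also varied little (0.068, with 8.58% of probe sets varying less). Whether the low signals of both probe sets, given below, had a part in this small spread was not tested.

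At 4 das, probe set 263203_at of the same gene had log2 values of 4.22 and 4.18 in rRBr, against 3.98 and 3.91 in Col-0. At 6 das it had 3.97 and 4.00 in rRBr, against 4.29 on the single Col-0 array. At 10 das the 3 rRBr arrays read 4.01, 4.05 and 4.12, and the 3 Col-0 arrays read 3.93, 4.01 and 4.14. Here the lines overlapped, and the highest of the 13 values was on the Col-0 array of 6 das. The mean was 4.08 ± 0.10 (SD, n = 7) in rRBr and 4.04 ± 0.15 (SD, n = 6) in Col-0, a log2 difference of 0.04 (95% interval −0.11 to 0.18, adjusted p = 0.916 from limma). Both probe sets gave low signals. The lower quartile of the arrays lay between 4.15 and 4.24, close to the rRBr values of 263204_at and above all its Col-0 values. Whether the transcript was detected at this level was not tested, as no detection calls were used, so that a level probe set does not show an unchanged transcript, and the files do not say which part of the transcript each probe set covers.

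The CHR31 probe sets were also compared on each array. On each array, 263204_at minus 263203_at averaged 0.16 ± 0.15 (SD, n = 7) in rRBr and −0.39 ± 0.20 (SD, n = 6) in Col-0, a difference of 0.55. The values lay between −0.09 and 0.37 in rRBr and between −0.73 and −0.22 in Col-0 and did not overlap. In a two-sided exact permutation test over the 1716 ways to assign 7 of 13 arrays to rRBr, p was 0.00058, the smallest this test can give, or 0.00117 after correction over 4 such comparisons. The test treats all 13 arrays as exchangeable. With the lines permuted only within days, p was 0.00278. In the 6 same-numbered pairs the difference was positive in 6 (0.14 to 0.98). With exchange only within these pairs, the exact permutation p was 0.03125, again the smallest possible and before correction over the 4 comparisons. That exchange takes the pairs as independent, but pairs of different days come from the same 3 germination repeats. Exchange by whole repeat was not run. The design names the comparison of the CHR31 probe sets. Both it and the 3 like it for the other genes were set up with results of these data known.

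**Figure D2:**
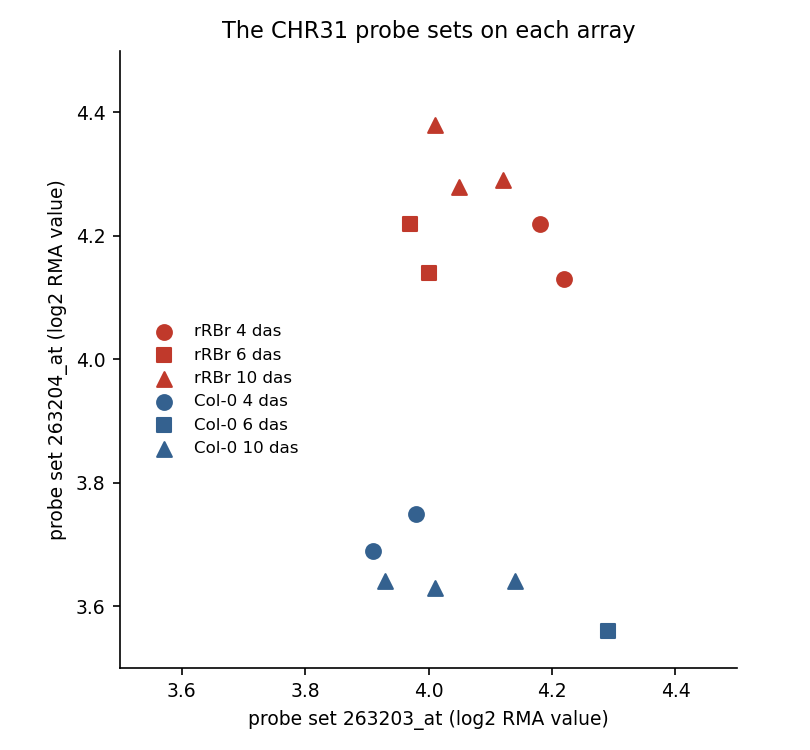
Log2 RMA value of probe set 263204_at (vertical axis) against probe set 263203_at (horizontal axis) of CHR31, with 1 point per array, colour for the line and shape for the day. The lines part along the vertical axis (4.13 to 4.38 in rRBr, 3.56 to 3.75 in Col-0) and overlap along the horizontal axis (3.97 to 4.22 in rRBr, 3.91 to 4.29 in Col-0).

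At 4 das, SGA2, the ASF1A chaperone gene, had log2 values of 7.61 and 7.92 in rRBr, against 7.31 and 7.62 in Col-0. At 6 das it had 7.64 and 7.79 in rRBr, against 7.51 on the single Col-0 array. At 10 das the 3 rRBr arrays read 7.45, 7.97 and 7.69, and the 3 Col-0 arrays read 7.20, 7.55 and 7.91. The lines overlapped over most of their range. The mean was 7.72 ± 0.18 (SD, n = 7) in rRBr and 7.52 ± 0.25 (SD, n = 6) in Col-0, a log2 difference of 0.21 (95% interval −0.04 to 0.45, adjusted p = 0.5967 from limma). In same-numbered pairs it was higher in rRBr in 5 of 6, with differences from −0.22 to 0.42.

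At 4 das, ASF1B, its paralogue, had log2 values of 9.12 and 9.17 in rRBr, against 8.81 and 8.88 in Col-0. At 6 das it had 9.02 and 9.07 in rRBr, against 8.98 on the single Col-0 array. At 10 das the 3 rRBr arrays read 8.71, 9.09 and 9.01, and the 3 Col-0 arrays read 8.54, 9.03 and 8.91. The lines were apart at 4 and 6 das and overlapped at 10 das. The mean was 9.03 ± 0.15 (SD, n = 7) in rRBr and 8.86 ± 0.17 (SD, n = 6) in Col-0, a log2 difference of 0.17 (95% interval −0.02 to 0.36, adjusted p = 0.5606 from limma). In same-numbered pairs ASF1B was higher in rRBr in 6 of 6, but by only 0.04 to 0.31.

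The difference of CHR17 was set beside those of the chaperone genes as a description, since these comparisons were chosen after the values had been seen. On each array, CHR17 minus ASF1B averaged 0.73 ± 0.12 (SD, n = 7) in rRBr and 0.28 ± 0.09 (SD, n = 6) in Col-0, a difference of 0.45 with no overlap between the lines. CHR17 minus SGA2 averaged 2.04 ± 0.14 (SD, n = 7) in rRBr and 1.62 ± 0.23 (SD, n = 6) in Col-0, a difference of 0.41, and the lines overlapped. For SGA2 minus ASF1B the difference between the lines was 0.04.

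The arrays with high root hair transcripts were also those on which CHR17, SGA2 and ASF1B were lowest within their line and day, and the part of this in the results was not tested beyond leaving these arrays out. Among the 10 das arrays, replicate 1 of rRBr had 9.63, 7.45 and 8.71 for CHR17, SGA2 and ASF1B, and replicate 1 of Col-0 had 8.70, 7.20 and 8.54. Each of these 6 values was the lowest of its line and day, and rRBr 6 das replicate 1 was likewise below rRBr 6 das replicate 2 for all 3 genes. Of the CHR31 probe sets, 263203_at was also lowest of its line and day on all 3 arrays. It had 3.97 and 4.01 on replicate 1 of rRBr at 6 and 10 das, and 3.93 on replicate 1 of Col-0 at 10 das. Probe set 263204_at was not lowest on any of them. Without the 3 arrays, the difference between the lines in 263204_at minus 263203_at was 0.51. Without the 3 arrays, CHR17 still passed over all days (log2 difference 0.57, adjusted p = 0.003353 from limma).

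Within single days, a member was called only at 10 das. At that age 1 of the 5 probe sets passed, 263204_at of CHR31, where 0.251% of all probe sets were called higher and 0.0352% lower, with a log2 difference of 0.68 (95% interval 0.54 to 0.82, fold change 1.60, adjusted p = 0.002146 from limma). Its difference was 0.46 at 4 das and 0.62 at 6 das (adjusted p = 0.2361 and 0.2732). CHR17 differed by 0.63 at 4 das, 0.48 at 6 das and 0.66 at 10 das (adjusted p = 1, 0.9264 and 0.1562). At 4 and 6 das none of the 5 probe sets was called by limma, as 0.0044% of all probe sets were on each day (706 and 989 of them had an unadjusted p under 0.05), so that these days give little room for a call. The unadjusted p was under 0.05 for CHR17 and both CHR31 probe sets at 4 das and for both CHR31 probe sets at 6 das. The call of 263204_at at 10 das was lost without rRBr 10 das replicate 2 (adjusted p = 0.01082), rRBr 10 das replicate 3 (0.01263), Col-0 10 das replicate 2 (0.01122), Col-0 10 das replicate 3 (0.01368) or the 3 arrays with high root hair transcripts together (0.01111), while the difference remained 0.65 to 0.70. Among the root tip markers, JKD was lower in rRBr on all 10 das arrays, as given above, and its part in this result was not tested.

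For 4, 6 and 10 das in turn, SGA2 differed between the lines by 0.30, 0.21 and 0.15, and ASF1B by 0.30, 0.07 and 0.11. All 6 intervals include 0, the narrowest being −0.19 to 0.41 for ASF1B at 10 das. Probe set 263203_at differed by 0.26 at 4 das, −0.31 at 6 das and 0.03 at 10 das, none of which was called. At 4 das both rRBr values of this probe set were above both Col-0 values, and at 6 das both were below the single Col-0 value.

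**Figure D3:**
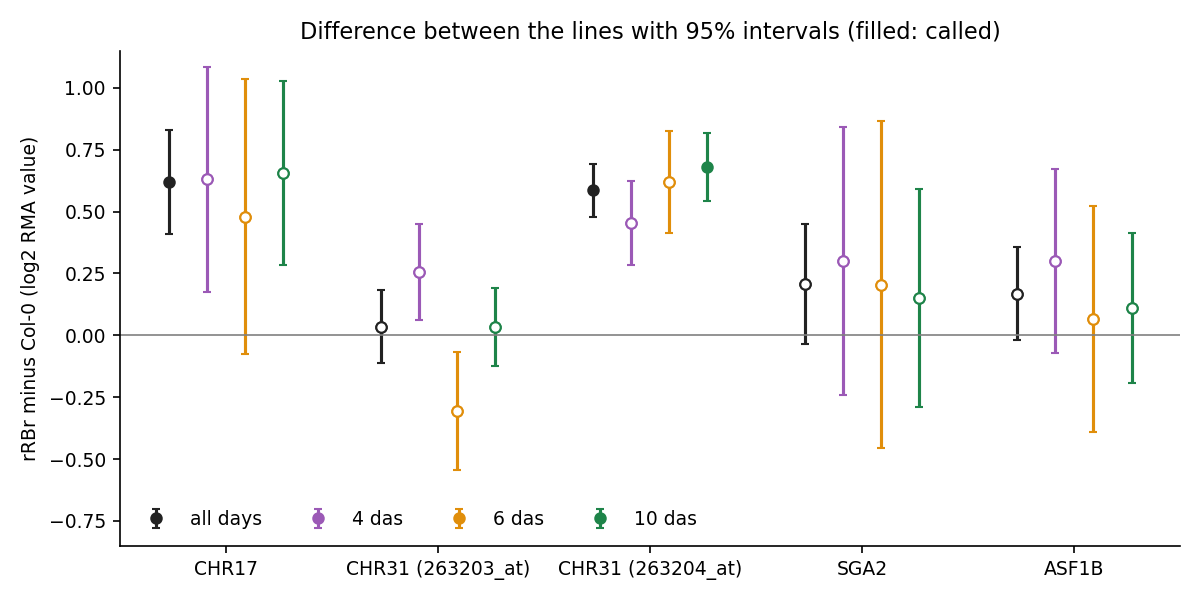
Difference between rRBr and Col-0 in log2 RMA value (vertical axis) for the 5 member probe sets, over all days and within 4, 6 and 10 das, with 95% intervals from limma and filled points for called differences. CHR17 and 263204_at of CHR31 lay between 0.46 and 0.68 in all 4 comparisons, and the intervals of SGA2 and ASF1B include 0 throughout.

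No member was called between 10 and 4 das within either line. At 10 against 4 das in rRBr, the log2 differences were −0.01 for CHR17, 0.14 for 263204_at, −0.14 for 263203_at, −0.06 for SGA2 and −0.21 for ASF1B. In Col-0 they were −0.04, −0.08, 0.08, 0.09 and −0.02 in the same order. By limma 0% of all probe sets were called in rRBr and 0.0308% in Col-0, 0.022% higher and 0.00879% lower (1197 and 1048 had an unadjusted p under 0.05). The intervals still allow changes of some size, for instance −0.43 to 0.40 for CHR17 in rRBr. For CHR17 the order of the 6 group means thus followed the line: the 3 rRBr means lay at 9.75 to 9.77, and the 3 Col-0 means at 9.10 to 9.29, and neighbours within a line differed by less than the residual SD of 0.22. For 263204_at of CHR31 the order also followed the line, with rRBr at 10 das highest (4.32) and Col-0 at 6 das lowest (3.56). For SGA2 the order followed the line too, with the rRBr means at 7.703 to 7.765 and the Col-0 means at 7.465 to 7.553. For ASF1B it did not, since Col-0 at 6 das (8.98) lay above rRBr at 10 das (8.937). For both genes, all neighbours in the series of group means differed by less than the residual SD (0.27 and 0.18). For 263203_at, Col-0 at 6 das (4.29) and rRBr at 4 das (4.20) stood above the other 4 groups (3.94 to 4.06), with a residual SD of 0.068.

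The difference between the lines did not pass as changing with age for any member (0.0044% of all probe sets did so, and 695 had an unadjusted p under 0.05 in limma). For 263204_at it was larger at 10 than at 4 das by 0.23 (95% interval 0.01 to 0.44, unadjusted p = 0.04429, adjusted p = 1). For 263203_at the change was −0.22 (−0.47 to 0.03), and for CHR17 it was 0.03 (−0.56 to 0.61).

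The rest of the remodeller family showed no further call over all days. Of 30 listed genes of SNF2 remodellers, 12 had a probe set of their own, with 13 probe sets, of which 2 were called higher, both of them members described above, and none lower. CHR11, named above with CHR17 as an ISWI type ATPase, was not among these 12. The median difference of the 13 was 0.04, against −0.01 over all probe sets, with 11 positive and 2 negative. Without CHR17 and CHR31 the other 10 had 8 positive and 2 negative differences and no call, and 3 had an unadjusted p under 0.05, as 2329 of all 22746 probe sets did. These were CHR24, CHR40 and CHR23, named here after their values had been seen. CHR24, an SNF2 family gene that its annotation also lists as ERCC6 and RAD26, lay at 6.74 to 7.23 in rRBr and 6.02 to 6.65 in Col-0 and did not overlap, with a log2 difference of 0.52 (SE 0.11) that missed the limit (adjusted p = 0.04248 from limma). CHR40, known as CLASSY4 and thus a relative of CHR31, lay at 3.97 to 4.37 in rRBr and 3.57 to 4.07 in Col-0, with a difference of 0.29 (adjusted p = 0.1543 from limma). CHR42, known as CLASSY2, differed by −0.06 (95% interval −0.18 to 0.06), and CHR23, an ATPase of the SWI/SNF type, by 0.19 (adjusted p = 0.4542 from limma). INO80, ATRX, ETL1, CHR18, CHR34 and RAD5 had differences between −0.04 and 0.06.

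Of 19 listed histone chaperone genes, 3 had a probe set of their own, SGA2, ASF1B and AT4G37210. None was called in limma, and 1 of the 3 had an unadjusted p under 0.05 (2329 of all 22746 probe sets did), AT4G37210 with a log2 difference of 0.20 (95% interval 0.02 to 0.37, adjusted p = 0.3943). The median of the 3 was 0.20. Of 15 genes for partner subunits of the ISWI, SWI/SNF and SWR1 complexes, 6 had a probe set of their own. None was called in limma, 5 of 6 differences were positive, and their median was 0.11. The largest was 0.16 for AT3G01890 (95% interval −0.07 to 0.39, adjusted p = 0.6929), followed by 0.16 for CHC1 (adjusted p = 0.4847), a SWI/SNF subunit and the only one of the 6 with an unadjusted p under 0.05. None of 13 genes of the RNA-directed DNA methylation pathway, in which CHR31 acts, had a probe set of its own.

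**Figure D4:**
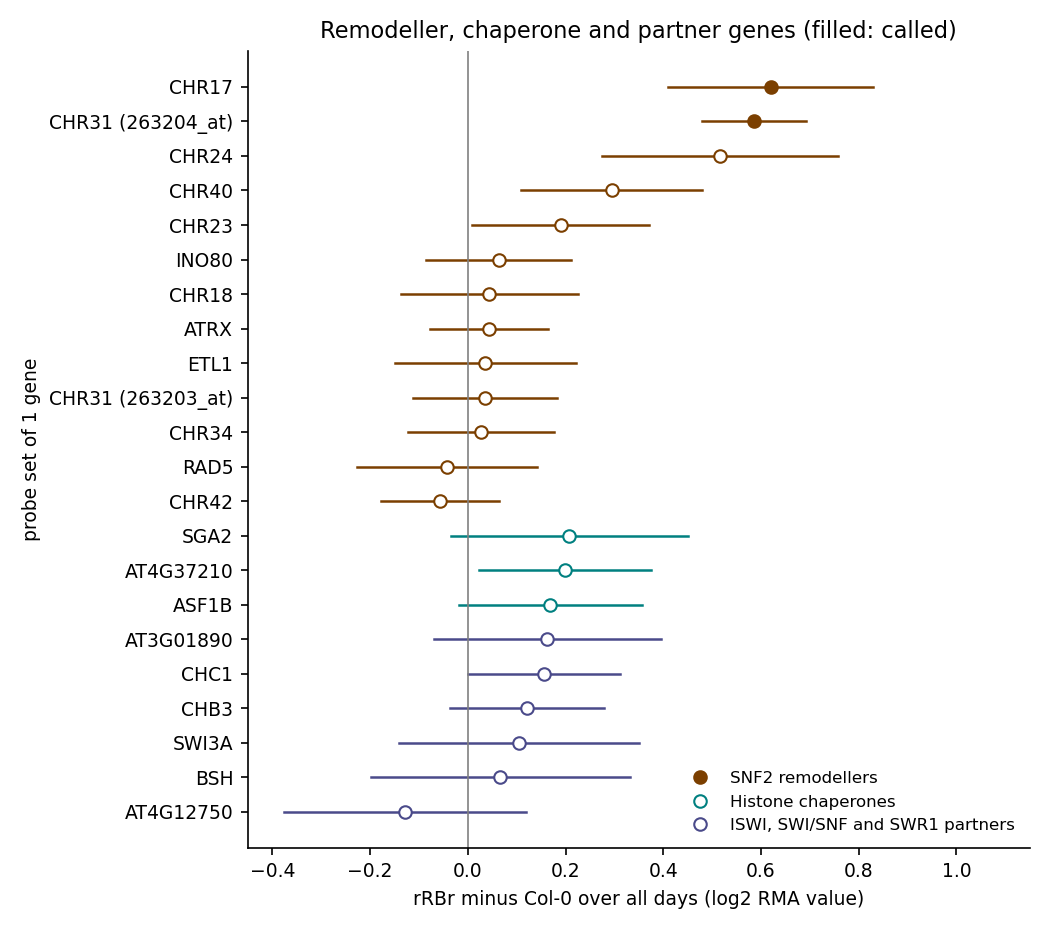
Difference between rRBr and Col-0 over all days in log2 RMA value (horizontal axis) with 95% intervals from limma for the 22 probe sets of the remodeller, chaperone and partner lists (vertical axis, ordered by size within each list), with filled points for called differences. CHR17 (0.62) and 263204_at of CHR31 (0.59) were called, and CHR24 (0.52) came next.

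The genes whose values ran most alike with each member were taken from the probe sets of 1 gene by the Pearson r over the 13 arrays, as a description in which the difference between the lines and the arrays that stand apart both count. CHR17 was most like PRL (r = 0.976), the gene of MCM7, a part of the replicative helicase, ATSMC2 (0.975), a condensin subunit gene, and AT3G17160 (0.962). These 3 genes had log2 differences between the lines of 0.62, 0.52 and 0.52. Probe set 263204_at of CHR31 was most like AT3G53650 (0.973) and AT3G09480 (0.967), both annotated in the study as histone superfamily proteins, and AT5G05180 (0.953), of unknown function. Their differences were larger than that of 263204_at, at 0.90, 0.81 and 2.50. Probe set 263203_at shared none of these genes and was most like AT3G50290 (0.845), AT1G10990 (0.841) and AT4G26820 (0.839). SGA2 ran most like AT3G52230 (0.906), AT3G22220 (0.887) and AT2G10380 (0.881), and ASF1B like AT2G24060 (0.930), AT1G23220 (0.918) and AT5G47400 (0.909). The differences between the lines of the 9 genes most like 263203_at, SGA2 and ASF1B lay between 0.00 and 0.21, and none was called.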

How the data were processed

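Root tips of rRBr and Col-0 were profiled on 13 ATH1 arrays. The authors made the deposited log2 values by RMA, which corrects background, equalises the arrays by quantiles and summarises the probes of a set, using affy from Bioconductor (version not given in the sources used here), with 1 column per array. Of 22810 probe sets, 64 controls were left out. A table of GEO's platform annotation gave 1 gene for 13513 probe sets (13436 matched to the RefSeq annotation of TAIR10.1 by gene identifier), several for 503 and none for 8730. Precision is limited by how many arrays and germination repeats there are, and p-values measure the spread between these arrays. The main fits took the arrays as independent, although arrays of different days come from the same germination repeats.

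Differences were fitted in R 4.3.3 with limma 3.58.1 (lmFit and eBayes, Benjamini and Hochberg correction over 22746 probe sets), once with 7 rRBr against 6 Col-0 arrays and once with 6 groups by line and day, which share 1 estimate of the spread. At 6 das Col-0 has a single array, taken to vary as much as arrays elsewhere. Differences that change between 4 and 10 das were called at an adjusted p under 0.05. Differences between probe sets on the same array were tested by exact permutation over arrays in Python 3.11.15 with numpy 2.4.6. The fits were also run on simulated data with independent noise for each array, as a check of the code. The simulation held no day effect and no shared deviation of arrays, so that it does not show that the calls hold here.

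The members and lists were chosen with earlier results of these data known. All members are named, as are the called members of the lists, the largest difference in lists without a call and the 3 probe sets of 1 gene most like each member. Other list members are named outside this rule. Same-numbered arrays of the lines deviated together after removal of group means (correlation across probe sets 0.18 at 4 das for both numbers, which are 1 value as each line has 2 arrays, and 0.79, 0.60 and 0.63 at 10 das), and since both lines were germinated together in each repeat the numbers were taken to pair the arrays. Alternatives included replicate blocks, an average within days, day as a factor, array weights, a trend and robust variance, further normalization, filters, other limits and leaving out arrays.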

Additional observations from a re-analysis of the deposited data

Results flagged for a closer look

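ASF1B on rRBr 10 das replicate 1 had a log2 value of 8.71, below the 9.01 to 9.17 of the other 6 rRBr arrays by more than the spread among them allows for 7 values. It was the only such array among the 10 groups of values examined (5 probe sets in each line, days pooled). Chance gives about 1 in 20 for each group, so that 1 such array among 10 groups is not rare. It is 1 of the 3 arrays with high root hair transcripts.

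Probe set 263203_at of CHR31 differed between rRBr and Col-0 by 0.26 (0.255 before rounding) at 4 das and by −0.31 (−0.305) at 6 das. All arrays moved one way at 4 das and the other way at 6 das, with 1 Col-0 array at 6 das, and the difference between the days was not tested.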

How the results depend on the processing

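The difference between the 2 CHR31 probe sets (0.48 to 0.59) kept its direction and an unadjusted permutation p under 0.05 (p = 0.03125 at most). This held without single arrays, without the 3 arrays that stand apart and after quantile normalization again. It also held with the lines exchanged within days or, chosen after seeing the data, within the replicate block of same-numbered pairs. That last exchange takes the pairs as independent, although they share germination repeats. CHR17 over all days was not called with the day as a factor (0.611), the average within days (0.589), the replicate block and day together (0.589), a block for each same-numbered pair (0.610, chosen after seeing the data), without the 6 das arrays (0.646) or at 10 das alone (0.657, when 263204_at at 0.68 was not called either), nor without most single arrays (0.53 to 0.68). The number of members called was 1 in these fits, or 0 at 10 das alone, and 1 to 2 without single arrays. With the replicate number alone as a block both members were called (0.60 for CHR17). A mean log2 value of at least 5 left 1 over all days and 0 at 10 das, since both CHR31 probe sets drop out. The count at 10 das was 0 with its arrays alone or without the 3 arrays that stand apart, and 0 to 1 without single arrays. Over all probe sets, 95 were called over all days, 172 at an adjusted p under 0.05, 59 with the average within days, 53 with a block for each pair, 23 without the 6 das arrays, 0 at 10 das alone, 37 among probe sets of 1 gene and 52 to 104 without single arrays. At 10 das, 65 were called, 175 at the looser limit, 235 with array weights, 25 among probe sets of 1 gene, 0 in its arrays alone and 10 to 65 without single arrays. At the single days and between ages, the blocks changed no call of a member.

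Only differences of members that were not called changed sign. For 263203_at these were −0.0056 over all days (average within days) and, at 10 das, −0.023 (array weights) and −0.0033 (medians centred). ASF1B at 6 das was −0.039 with the replicate block, and SGA2 at 10 das −0.036 with array weights. Between 10 and 4 das in rRBr, array weights gave 0.016 for CHR17 and 0.0037 for SGA2, and leaving out the 3 arrays gave 0.05 and 0.065. In Col-0, array weights gave 0.034 for CHR17 and 0.061 for ASF1B, leaving out the 3 arrays gave 0.16 and 0.125, and centring gave 0.0017 for ASF1B. The change of the difference with age for CHR17 was −0.018 with array weights, −0.015 with centring and −0.11 without the 3 arrays. Without single arrays, the differences at 10 das lay at −0.015 to 0.09 for 263203_at, −0.027 to 0.328 for SGA2 and −0.033 to 0.223 for ASF1B. Those between ages lay in rRBr at −0.09 to 0.05 for CHR17 and −0.217 to 0.093 for SGA2, and in Col-0 at −0.21 to 0.16 for CHR17, −0.09 to 0.265 for SGA2 and −0.12 to 0.125 for ASF1B. Their change between lines lay at −0.172 to 0.198 for CHR17 and −0.327 to 0.028 for SGA2. The causes were not tested. With 1 to 3 arrays in each line and day, and CHR31 near the lower quartile of signal, changes within the intervals given could be missed.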
